A study of Mus musculus and Sus scrofa with 30 samples.

Results

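The genes described here are 10 members of the circadian clock: Clock, Per1, Per2, Per3, Cry1, Cry2, the REV-ERB genes Nr1d1 and Nr1d2, and the output genes Dbp and Tef. They were taken by symbol, ignoring case, from the deposited expression tables of 2 cell systems. All 10 were found among the 24843 genes of the mouse table, and 9 among the 34307 genes of the pig table, where PER3 was not analysed here. Each of these genes had a mean of at least 10 normalized counts over the 15 libraries of its table and was tested.

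In the mammalian clock, CLOCK pairs with BMAL1 and drives genes that carry E-boxes, among them the Per and Cry genes, whose proteins return to the nucleus and repress CLOCK and BMAL1. The REV-ERB proteins form an interlocked loop: they repress Bmal1 through ROR elements, in competition with the ROR receptors. DBP and TEF are output factors that bind D-boxes. Cultured fibroblasts and adipocytes run this clock, glucocorticoids and cAMP act on Per1 directly, and Nr1d1 is a known target of PPARγ that rises as preadipocytes become fat cells.

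Both systems were cultures under adipogenic induction, harvested at day 5. 3T3-L1 is an established mouse embryonic fibroblast line that can turn into fat cells, and the porcine DFAT cells are fat cells from subcutaneous fat that have dedifferentiated and can be induced again. Each system had 5 groups of 3 libraries: cells given DMSO as vehicle, dicoumarol, magnolol, dicoumarol and magnolol together (called the combination), or rosiglitazone during induction. Dicoumarol is an anticoagulant coumarin that blocks vitamin K recycling, magnolol is a lignan from magnolia bark, and rosiglitazone is a PPARγ agonist. All 3T3-L1 groups, vehicle included, received insulin (0.75 µg/mL), dexamethasone (75 nM) and IBMX (37.5 µM) in medium with 10% serum. All DFAT groups received dexamethasone (0.5 µM) and IBMX (12.5 µM) with biotin and pantothenate in 2% serum. Dexamethasone is a glucocorticoid and IBMX raises cAMP, so every library comes from cells given 2 agents that act on the clock. The sources used here give no compound doses, no hour of harvest and no synchronization step. With 1 time point per library, the level of a rhythmic gene and its phase cannot be told apart. Nothing in the labels says that the 3 libraries of a group came from separate cultures, so p-values measure only the spread between these samples. DFAT donors are not described.

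The tables hold counts divided by DESeq2 size factors, from libraries with an estimated 22.8 to 30.7 M reads in 3T3-L1 and 44.8 to 70.5 M reads in DFAT. Fat cell genes were present in both systems: the summed normalized counts of Adipoq, Plin1, Fabp4, Cidec, Lpl, Pparg, Cebpa and Cd36 ran from 44205 to 62112 in the 3T3-L1 vehicle libraries. It ran from 62262 to 96533 with dicoumarol, 89035 to 132973 with magnolol, 114981 to 180986 with both and 321407 to 565835 with rosiglitazone. In DFAT the same sum ran from 18489 to 21420 with vehicle, 23442 to 25088 with dicoumarol, 36161 to 44592 with magnolol, 56913 to 64213 with both and 76446 to 83524 with rosiglitazone. All 8 of these genes were higher with the combination and with rosiglitazone in each system, so the clock genes below are compared between cultures that differ in fat cell transcripts. Their part in the results on clock genes was not tested, and in bulk RNA fewer cells of a type and less RNA per cell cannot be told apart. The 6 fibroblast or preadipocyte markers were all above the minimum in 3T3-L1, and all 6 were lower with rosiglitazone, as were 19.9% of all genes, while Pdgfrb and Dlk1 were also lower with the combination. In DFAT 4 of these 6 were tested: PDGFRA was lower with all 4 treatments, COL1A1 was higher with dicoumarol, magnolol and the combination, and COL3A1 with the last 2 of these. The summed level of the fibroblast markers there went from between 1581903 and 1734148 with vehicle to between 2521475 and 2997189 with the combination, and was 1233578 to 1371921 with rosiglitazone. Endothelial markers stayed at or under a summed 29.5 in 3T3-L1. In DFAT they summed to 204 to 239 with vehicle and 149 to 210 with the treatments, nearly all of it PECAM1, which was not called. Epithelial markers stayed at or under a summed 7.13 in either system. The pericyte or smooth muscle genes MYH11 and CSPG4 were higher with all 4 treatments in DFAT, while RGS5, at a mean of 34.9 normalized counts with vehicle, was not called and lay under vehicle with dicoumarol, magnolol and the combination. The summed level of RGS5, MYH11 and CSPG4 went from 3829 to 4272 with vehicle to between 12679 and 14027 with the combination.

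Promoter letters are shown for 3 feedback genes, Per1, Cry1 and Per3, whose promoters hold a clock element and whose values move together within the 3T3-L1 groups, as described further on. Cry2, Nr1d1 and Nr1d2 also moved with these genes or one another, with r up to 0.86 for Cry2 and Nr1d2. Their promoters hold no match to any element searched. A link between the letters and the values was not tested. The letters come from the RefSeq promoter table of GRCm38.p6, which holds 13 promoters for 9 of the 10 genes. Per2 is not among those 9. The stretches are the 250 bases before the first base of the transcript, 5′ to 3′ on the strand of the gene, with E-boxes or D-boxes in capitals.

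Per1, chr11:69098699-69098948, plus strand: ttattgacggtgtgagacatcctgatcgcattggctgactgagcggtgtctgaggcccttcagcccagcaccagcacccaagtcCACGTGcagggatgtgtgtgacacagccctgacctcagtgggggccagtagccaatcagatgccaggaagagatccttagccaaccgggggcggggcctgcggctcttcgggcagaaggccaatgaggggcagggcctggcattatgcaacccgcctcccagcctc

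Cry1, chr10:85185055-85185304, minus strand: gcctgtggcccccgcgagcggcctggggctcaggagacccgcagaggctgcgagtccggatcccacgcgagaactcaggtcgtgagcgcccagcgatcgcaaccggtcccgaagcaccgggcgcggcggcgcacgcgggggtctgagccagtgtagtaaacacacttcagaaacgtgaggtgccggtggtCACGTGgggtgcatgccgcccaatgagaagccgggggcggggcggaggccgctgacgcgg

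Per3, chr4:151044666-151044915, minus strand: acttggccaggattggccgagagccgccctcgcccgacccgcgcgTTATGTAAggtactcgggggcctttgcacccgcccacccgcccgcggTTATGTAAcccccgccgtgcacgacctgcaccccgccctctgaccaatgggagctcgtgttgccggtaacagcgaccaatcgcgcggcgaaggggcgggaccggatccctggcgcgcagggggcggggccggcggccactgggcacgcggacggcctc

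The E-box searched was CACGTG, the D-box TTATGTAA or TTACGTAA, the ROR and REV-ERB element TAGGTCA and the cAMP response element TGACGTCA, each on both strands over 300 bases, 250 before the start and 50 after it. Positions count back from the base before the start. Per1 has an E-box that begins at -166 in its first promoter, Cry1 has one at -60, and Per3 has 2 D-boxes, at -205 and -158. Tef, not printed, has an E-box at -127 in one promoter and at -138 in the other. Across all 32851 promoters in the table, 7.15% hold the E-box, 1.06% the D-box, 2.61% the ROR and REV-ERB element and 1.79% the cAMP response element. No match to the last 2 was found in these 13 windows, which says only that those letters are not there. A match is a string of letters, and binding was not measured.

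Within the 3T3-L1 vehicle libraries, Per1 had the highest level when normalized counts were divided by exon length, at 470 ± 28.8 per kb (SD, n = 3). Tef followed at 307 ± 4.7 per kb. Cry2 (136 ± 12.2), Clock (130 ± 10.6), Nr1d1 (120 ± 11.6) and Nr1d2 (105 ± 32.9) lay within their spread of one another, as did Cry1 (91.2 ± 21.6), Per2 (91.1 ± 14.4) and Dbp (81.7 ± 4.9). Per3 was lowest at 37.1 ± 4.5 per kb. No exon lengths for the pig were used, so levels are not ranked between genes there.

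In the mouse table Per1 (ENSMUSG00000020893) is listed at chr11:68986043-69000786 on the plus strand, Cry1 (ENSMUSG00000020038) at chr10:84967564-85020928 on the minus strand and Nr1d1 (ENSMUSG00000020889) at chr11:98658758-98666159 on the minus strand. In the pig table CRY1 (ENSSSCG00000000164) is at chr5:13275545-13364593 on the plus strand and DBP (ENSSSCG00000003148) at chr6:53986959-53993020 on the minus strand. All are annotated as protein coding, and the counts are for whole genes. The listed mouse starts differ from those of a GRCm38 annotation for 10 of 10 genes, so these positions are given as listed and not joined to the promoter positions above. Nr1d1 overlaps Thra, the thyroid hormone receptor gene on the opposite strand, in both species. Thra averaged 5507 normalized counts against 419 for Nr1d1 in 3T3-L1, and THRA 2476 against 666 for NR1D1 in DFAT. The libraries keep strand, but the strand setting used in counting is not given, so the share of Thra reads within the Nr1d1 counts cannot be told. Dbp overlaps Sphk2 in the same way in the mouse, with 223 normalized counts against 715, and pig DBP overlaps an unnamed protein-coding gene on the opposite strand, with 61.4 against 27.9. On its own strand mouse Clock overlaps the pseudogene Ube2n-ps1, and Per3 overlaps Camta1, each partner with a lower mean than the clock gene. How reads in these overlaps were shared out is not given in the sources used here, so these values carry the same limit.

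**Figure D1:**
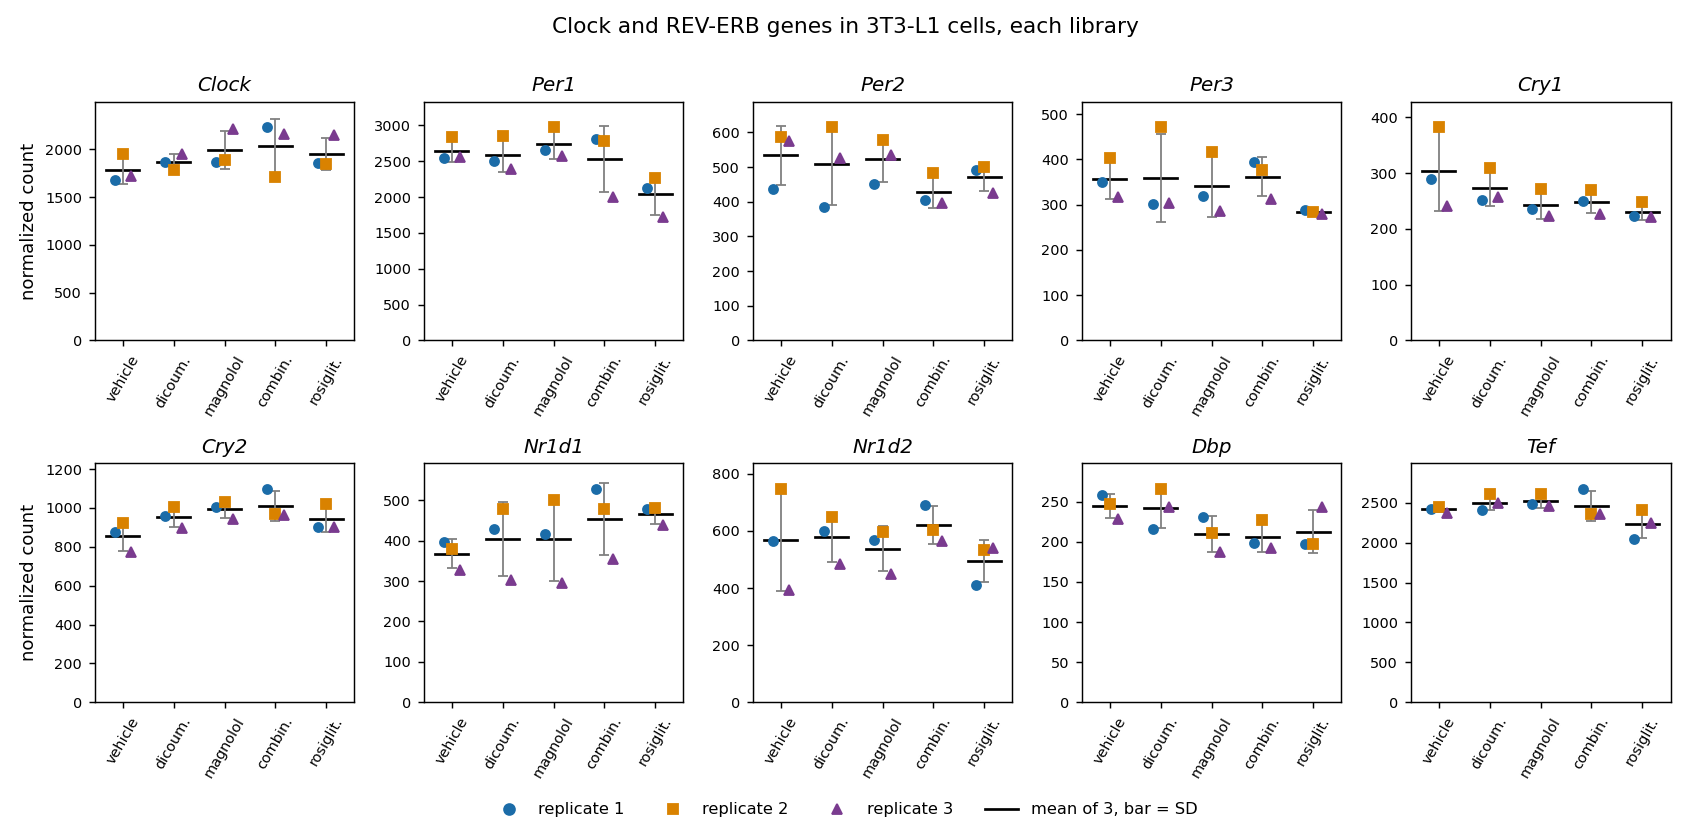
Normalized count (y axis, from 0) of each of the 10 genes in every 3T3-L1 library, by group (x axis). Points are libraries, coloured by replicate number, black lines are group means and grey bars are SD (n = 3). Per1 sits at 1720 to 2268 with rosiglitazone, under all 3 vehicle libraries, while most other groups overlap with vehicle.

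In 3T3-L1 cells at day 5, Per1 was lower with rosiglitazone, and no other clock gene of the 10 passed the test in any group. The test was limma on log2(value + 1) over 15723 genes with adjusted p under 0.05. With dicoumarol 0 of 10 genes were called, where 0.00% of all genes were. With magnolol 0 of 10 were called against 1.23% of all genes, and with the combination 0 of 10 against 5.22%. With rosiglitazone 1 of 10 was called, where 40.1% of all genes were and 19.9% were lower. At an unadjusted p under 0.05, 0, 1, 1 and 2 of the 10 genes were counted for the 4 treatments in that order. Over all 15723 genes these counts were 393, 1579, 2691 and 7636. The same 3 vehicle libraries serve all 4 comparisons. A second fit that takes out the replicate number (the replicate block) called 4 of 10 with rosiglitazone (Per1, Per3, Cry1 and Nr1d1) and 1 of 10 with the combination (Cry2). That fit called 2124 of all 15723 genes with the combination. Its count over all genes with rosiglitazone is not given here, so the 4 of 10 cannot be set against it.

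The typical change of the 10 genes was under that of all tested genes, except with the combination, where it was larger. Their median absolute log2 change from vehicle was 0.07 for dicoumarol, 0.09 for magnolol, 0.21 when both were given and 0.19 for rosiglitazone, beside 0.08, 0.12, 0.15 and 0.33 over all tested genes. A test of any difference among the 5 groups called 0 of 10, while 28.1% of all genes were called. Per1 came closest in it, with an adjusted p of 0.0982 in limma. With the replicate block that test called 2 of 10, Per1 and Cry1, and 6687 of all 15723 genes.

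Clock, the positive arm of the loop, read 1679, 1948 and 1719 normalized counts with vehicle and 1856, 1848 and 2148 with rosiglitazone. The groups overlap. Its mean was highest with the combination, 2034 ± 284 (SD, n = 3) against 1782 ± 145 with vehicle, a log2 difference of 0.18 (95% interval -0.05 to 0.42).

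Per1, the period gene that glucocorticoids and cAMP induce directly, read 2548, 2833 and 2557 normalized counts with vehicle. With rosiglitazone it read 2127, 2268 and 1720. All 3 treated libraries lie under all 3 vehicle libraries, the log2 change was -0.38 (SE 0.13) and the limma adjusted p 0.0284. With dicoumarol (2506, 2857 and 2394), magnolol (2655, 2975 and 2578) and the combination (2804, 2789 and 2001) the values of Per1 overlap with vehicle, and 1 combination library is far under the other two. Without rosiglitazone replicate 3 the change of Per1 with rosiglitazone was -0.27 (limma adjusted p 0.138), without vehicle replicate 2 it was -0.33 (0.0981), and with no variance trend in limma the adjusted p was 0.0506. Same-numbered 3T3-L1 libraries deviated together, so values with the replicate block are given where they change a call.

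Per2 and Per3, the other period genes, did not pass the test. Per2 read 436, 588 and 577 normalized counts with vehicle and 405, 483 and 397 with the combination, where its change was -0.31 (95% interval -0.66 to 0.04). Per3 read 350, 402 and 316 with vehicle and 287, 284 and 279 with rosiglitazone, so that all treated libraries are lower and close together. Its log2 change was -0.32 (SE 0.17) with a limma adjusted p of 0.152, and 0.0398 with the replicate block. Groups that do not overlap, as here, were found for 3 of the 10 genes with rosiglitazone and for 45.6% of all genes.

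Cry1, a cryptochrome that represses CLOCK and BMAL1, read 290, 383 and 241 normalized counts with vehicle, a wide spread. It read 253, 310 and 257 with dicoumarol, 236, 272 and 223 with magnolol, 249, 269 and 227 with the combination and 223, 248 and 221 with rosiglitazone. Means lay under vehicle in all 4 treatments, and every group overlaps with vehicle. The rosiglitazone change of Cry1 was -0.37 (SE 0.15), with a limma adjusted p of 0.0632. It was 0.00684 with the replicate block and 0.013 without vehicle replicate 3, the lowest vehicle library.

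Cry2, the second cryptochrome, lay above vehicle in every treatment mean. Its vehicle libraries read 878, 923 and 773 normalized counts, those with magnolol 1006, 1033 and 942, and those with the combination 1098, 970 and 962. Both treated groups are above all vehicle libraries, as groups were not overlapping for 15.4% of all genes with magnolol and 21.0% with the combination. The log2 changes of 0.21 and 0.24 (SE 0.09 each) did not pass, with limma adjusted p of 0.438 and 0.187. With the replicate block the combination change of Cry2 had an adjusted p of 0.0449.

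Nr1d1, which encodes REV-ERBα, read 397, 379 and 328 normalized counts with vehicle and 478, 480 and 438 with rosiglitazone. All rosiglitazone libraries are higher. The log2 change was 0.34 (SE 0.20) with a limma adjusted p of 0.184, and 0.0222 with the replicate block. With dicoumarol (430, 480 and 302), magnolol (418, 500 and 294) and the combination (528, 479 and 355) replicate 3 was the lowest library of Nr1d1 each time and the groups overlap with vehicle. Nr1d2, the gene of REV-ERBβ, had the widest vehicle spread of the 10, with 565, 747 and 392 normalized counts. Its largest difference in size was 0.17 with the combination (95% interval -0.24 to 0.59).

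Neither output gene passed the test with any treatment. Dbp read 258, 247 and 229 normalized counts with vehicle and 198, 227 and 193 with the combination, so the groups do not overlap, but the change of -0.25 (SE 0.13) had a limma adjusted p of 0.368. Tef had the smallest spread of the 10 genes over the 15 libraries, a log2 SD of 0.09, with vehicle at 2426, 2444 and 2374 and rosiglitazone at 2046, 2410 and 2249.

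**Figure D2:**
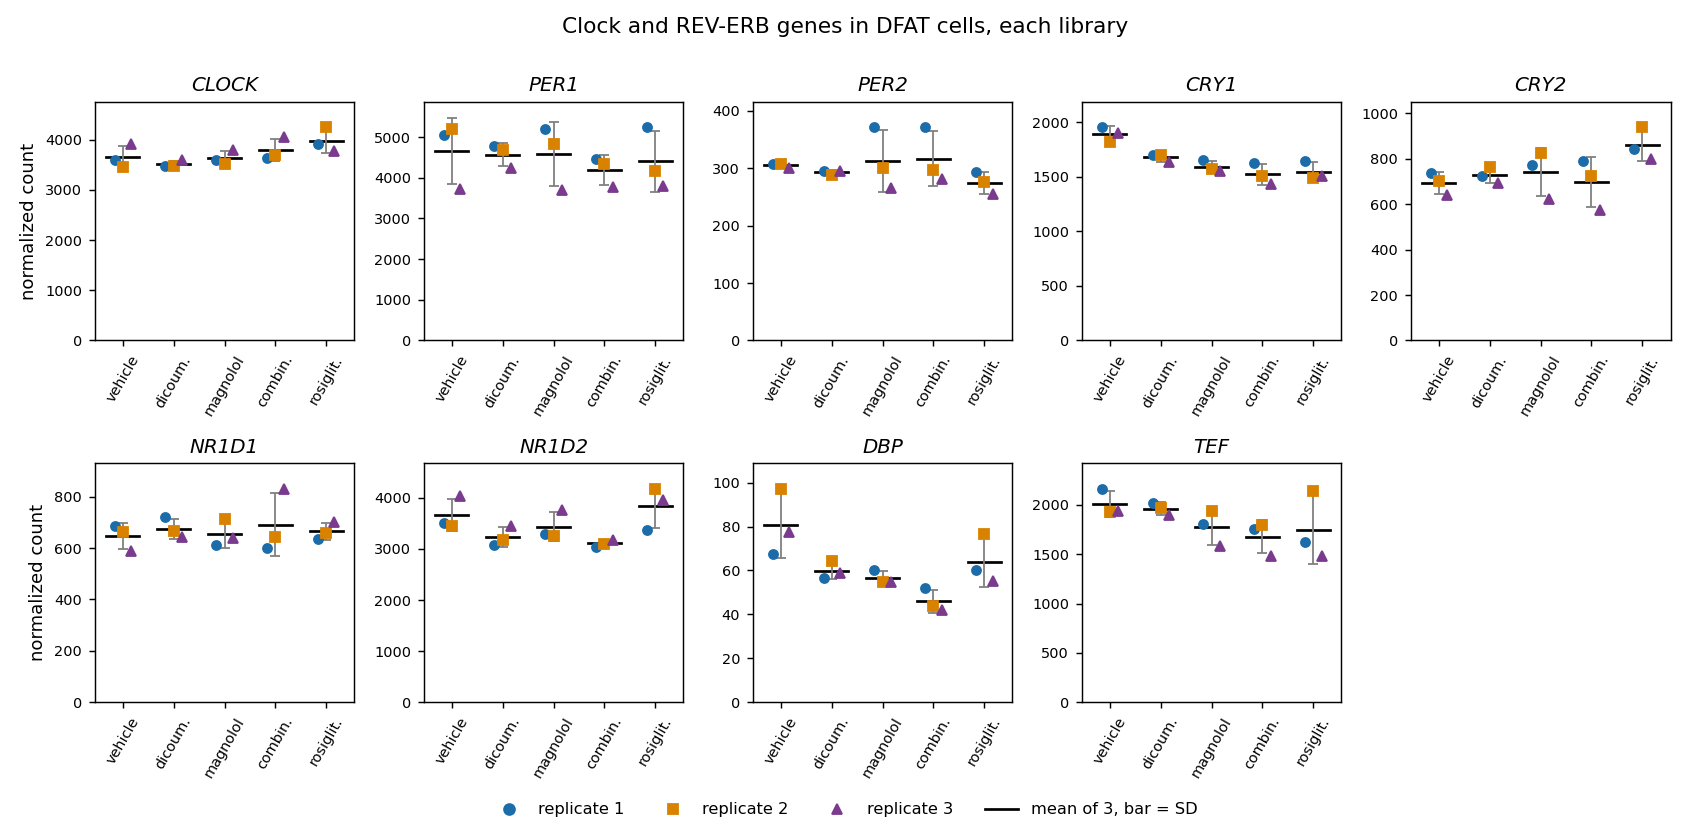
Normalized count (y axis, from 0) of each of the 9 genes in every DFAT library, by group (x axis), drawn as in the plot for 3T3-L1. All treated libraries of CRY1 lie at or under 1701, below the vehicle libraries at 1817 to 1953, and DBP is lowest with the combination.

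In the porcine DFAT cells 2 genes of the negative arm and the output arm fell: CRY1 with magnolol, the combination and rosiglitazone, and DBP with the combination. No gene of the 9 was called higher. In limma over 14819 genes, 0 of 9 were called with dicoumarol, where 1.94% of all genes were, 1 of 9 with magnolol against 4.22%, 2 of 9 with both compounds against 10.2% and 1 of 9 with rosiglitazone against 10.8%. In the direction of these calls, lower, the shares of all genes were 1.27%, 4.06% and 5.02% for the last 3. The counts at an unadjusted p under 0.05 were 3, 2, 4 and 2 of 9. Over all 14819 genes they were 1504, 2476, 3642 and 3225. The median absolute log2 change of the 9 genes was 0.07, 0.09, 0.14 and 0.16 in that order, beside 0.09, 0.11, 0.14 and 0.12 over all tested genes.

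CRY1 read 1953, 1817 and 1902 normalized counts with vehicle. It read 1701, 1696 and 1631 with dicoumarol, 1650, 1566 and 1556 with magnolol, 1625, 1504 and 1435 with the combination, and 1643, 1489 and 1509 with rosiglitazone. Every treated library lies under every vehicle library.

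The log2 change of CRY1 was -0.25 under magnolol, -0.31 under the combination and -0.29 under rosiglitazone (SE 0.06 each), with limma adjusted p of 0.0317, 0.00314 and 0.00501. With dicoumarol it was -0.17 (95% interval -0.31 to -0.04), with an adjusted p of 0.265. The magnolol call of CRY1 was lost in 5 of 6 fits that left out 1 library: without vehicle replicates 1 and 3 (adjusted p 0.14 and 0.0823) and without magnolol replicates 1, 2 and 3 (0.0529, 0.099 and 0.117). The combination and rosiglitazone calls of CRY1 held in 6 of 6. With only the 2 groups of a comparison in the fit, the adjusted p of CRY1 was 0.0749 with magnolol and 0.0536 with rosiglitazone.

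DBP, a D-box activator and a direct target of CLOCK and BMAL1, was the least counted of the 9 genes. It read 67.6, 97.1 and 77.4 normalized counts with vehicle and 52.0, 43.7 and 42.0 with the combination. These groups do not overlap, as for 28.9% of all genes. The log2 change was -0.79 (SE 0.18) on the log2(value + 1) scale, with a limma adjusted p of 0.00829. It was the largest change from vehicle in size among the 10 clock genes in either system. The call of DBP with the combination held in 6 of 6 fits that left out 1 library.

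With each compound alone DBP was also under vehicle, without passing the test. It read 56.6, 64.2 and 58.9 normalized counts with dicoumarol and 60.2, 54.8 and 54.7 with magnolol, all under the vehicle libraries, where 19.3% and 21.9% of all genes had groups that do not overlap. The changes were -0.41 and -0.49 (SE 0.18 each), with limma adjusted p of 0.432 and 0.159. With rosiglitazone it read 60.2, 76.8 and 55.0, which overlaps with vehicle.

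TEF and NR1D2 had lower combination libraries than vehicle without overlap, as 28.9% of all genes did not overlap there. TEF, the second output factor, read 2162, 1930 and 1936 normalized counts with vehicle and 1761, 1792 and 1485 with the combination, a log2 change of -0.26 (SE 0.11, limma adjusted p 0.163). NR1D2 read 3512, 3453 and 4029 with vehicle and 3047, 3090 and 3184 with the combination, a change of -0.24 (SE 0.08, limma adjusted p 0.087). With the replicate block both TEF and NR1D2 were called with the combination, in a fit that called 2643 of all 14819 genes. Without rosiglitazone replicate 2, where it read 2143, the rosiglitazone change of TEF was -0.37 and passed (limma adjusted p 0.0143).

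CRY2 was higher with rosiglitazone in all 3 libraries, at 844, 939 and 798 normalized counts against 738, 703 and 642 with vehicle. The log2 change of CRY2 was 0.31 (SE 0.12), with a limma adjusted p of 0.115. With the replicate block CRY2 was called, and the count over all genes in that fit is not given here. The rosiglitazone groups did not overlap for 21.4% of all genes.

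CLOCK, PER1, PER2 and NR1D1 differed little from vehicle in any group. The largest difference in size among these was -0.16 for PER2 with rosiglitazone (95% interval -0.42 to 0.10), where it read 294, 276 and 255 normalized counts against 308, 308 and 301 with vehicle. PER1 read 5052, 5190 and 3715 normalized counts with vehicle and 5245, 4175 and 3803 with rosiglitazone. Replicate 3 was its lowest library in each of the 5 groups. NR1D1 read 686, 662 and 590 with vehicle and 636, 657 and 703 with rosiglitazone, a difference of 0.04 (95% interval -0.18 to 0.27).

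The test of any difference among the 5 DFAT groups called CRY1 (limma adjusted p 0.00773) and DBP (0.0445), 2 of 9 genes, while 17.9% of all genes were called. CRY1 was called in 14 of 15 such fits that left out 1 library, the exception being vehicle replicate 1. DBP was called in 3 of 15, those without vehicle replicate 1 or without rosiglitazone replicate 2 or 3. NR1D2 was called without magnolol replicate 3 and without rosiglitazone replicate 1, and TEF without rosiglitazone replicate 2.

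**Figure D3:**
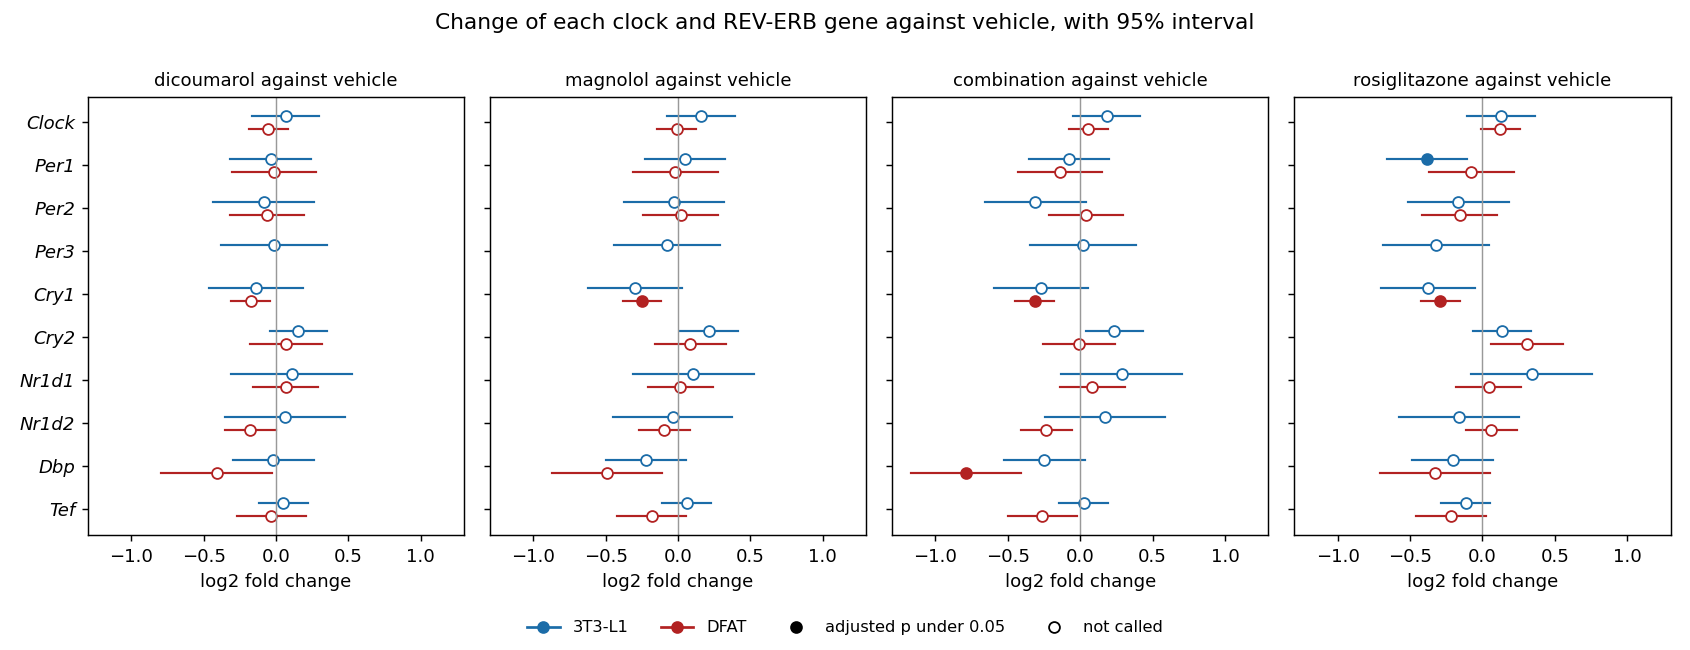
Log2 fold change against vehicle (x axis) with its 95% interval for each gene (y axis), in 1 panel per treatment, for 3T3-L1 in blue and DFAT in red. Filled points passed an adjusted p of 0.05: Per1 with rosiglitazone in 3T3-L1, CRY1 with 3 treatments and DBP with the combination in DFAT.

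No clock gene passed the test between the combination and either compound alone. In 3T3-L1, 0 of 10 were called for the combination against dicoumarol (0.0254% of all genes) and 0 of 10 against magnolol (0.00% of all genes), with 0 at an unadjusted p under 0.05 in both. In DFAT the counts were 0 of 9 against dicoumarol (2.35% of all genes, 1 at an unadjusted p under 0.05) and 0 of 9 against magnolol (0.621% of all genes, 0 at an unadjusted p under 0.05). At that p, 1273 and 336 of all 15723 genes were counted in 3T3-L1, and 1882 and 989 of all 14819 in DFAT. DBP in the combination was under dicoumarol alone by -0.38 (95% interval -0.76 to 0.00) and under magnolol alone by -0.30 (95% interval -0.68 to 0.08), and in both cases all 3 combination libraries were the lowest. Groups that do not overlap were found for 24.4% and 12.1% of all genes in these comparisons. For CRY1 the differences were -0.14 (95% interval -0.27 to -0.01) and -0.07 (95% interval -0.20 to 0.07).

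The responses of the 2 systems were compared gene by gene over 9371 symbols tested in both. This was a t test on the difference of the 2 limma log2 changes, adjusted over these symbols. For none of the 4 treatments did any of the 9 clock genes differ at an adjusted p under 0.05 (0 of 9 each). With dicoumarol, magnolol, the combination and rosiglitazone in turn, 0.149%, 3.23%, 11.7% and 38.8% of all shared genes differed. At an unadjusted p under 0.05 the counts were 0, 0, 2 and 0 of 9, and those over all shared genes are not given here. The nearest was the combination change of Dbp, -0.25 in 3T3-L1 and -0.79 in DFAT, a difference of 0.54 (95% interval 0.09 to 1.00, adjusted p 0.118 in this t test). Per1 with rosiglitazone changed by -0.38 in 3T3-L1 and by -0.08 in DFAT, a difference of -0.31 (95% interval -0.70 to 0.08, adjusted p 0.202). With the replicate block in both fits, Per1 with rosiglitazone was called, 1 of 9, and the share of all shared genes called there is not given here. Induction mix, serum, species and culture all differ between the systems and cannot be told apart.

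**Figure D4:**
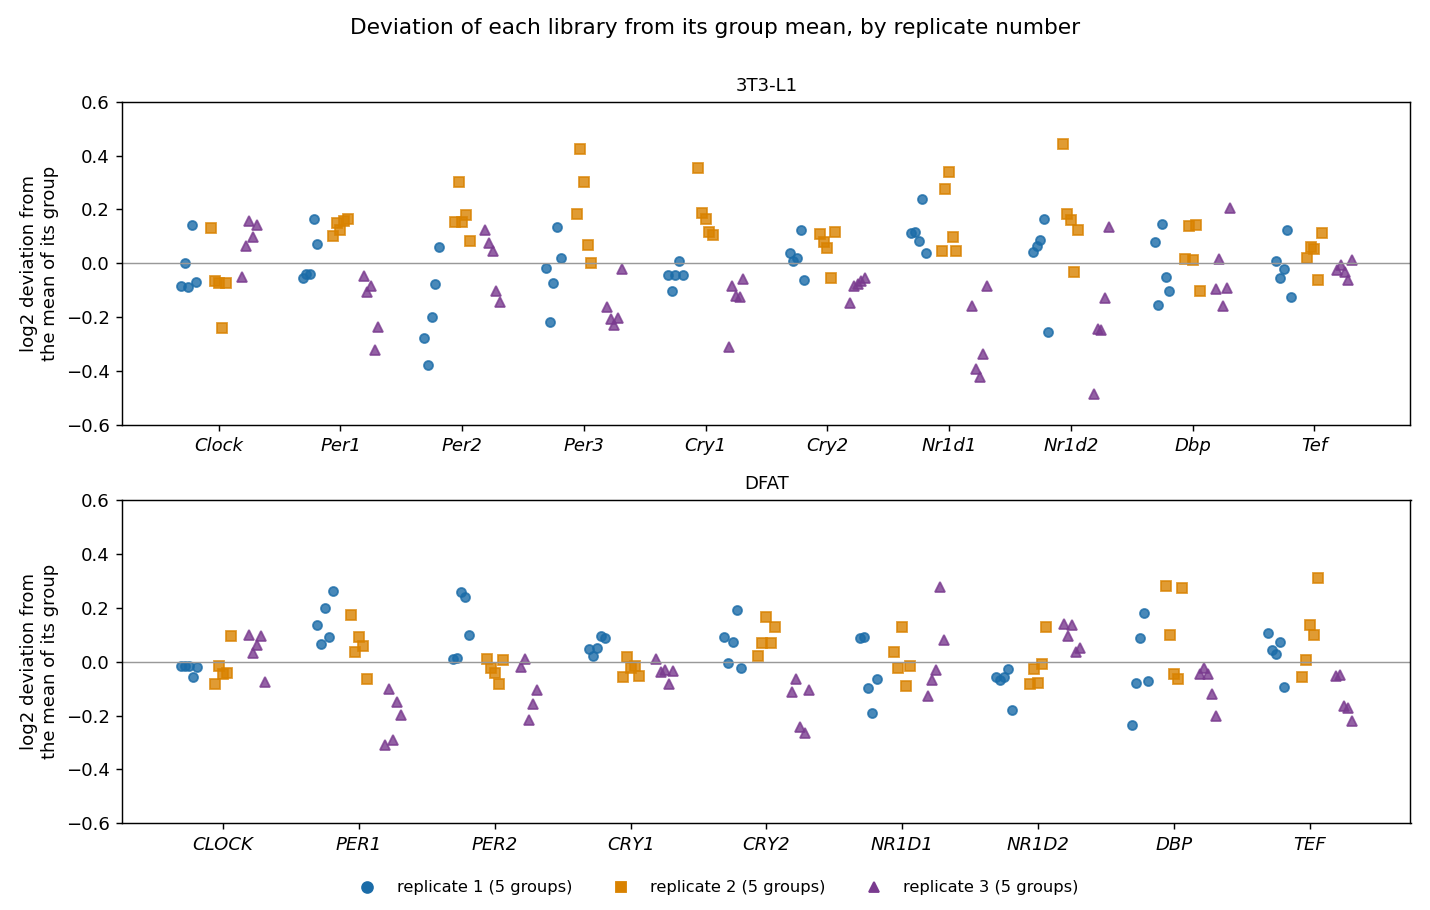
Log2 deviation of each library from the mean of its own group (y axis) for each gene (x axis), in 3T3-L1 and DFAT. Each gene has 5 points per replicate number, 1 per group from vehicle on the left to rosiglitazone on the right. In 3T3-L1 the replicate 3 points of Nr1d1, Per1, Per3, Cry1 and Cry2 lie under 0 in 5 of 5 groups.

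Within groups, several of the genes deviated with the replicate number. In 3T3-L1 replicate 3 was under its group mean in 5 of 5 groups for Nr1d1, Per1, Per3, Cry1 and Cry2, by a mean log2 deviation of -0.28, -0.16, -0.17, -0.14 and -0.09. Replicate 2 was above its group mean in 5 of 5 for Nr1d1, Per1, Per2, Per3 and Cry1. Clock leaned the other way, with replicate 3 above the mean in 4 of 5 groups.

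The same view in DFAT gave replicate 3 under the mean in 5 of 5 groups for PER1, CRY2, DBP and TEF, and above it in 5 of 5 for NR1D2. For PER1 the mean deviation of replicate 3 was -0.21 and that of replicate 1 was 0.15. The share of all genes that lie on one side in 5 of 5 groups is not given here for either system. What a replicate number stands for is not given, and whether it goes with hour of harvest, plate or handling was not tested.

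Sums of squares were split for each gene between treatment, replicate number and the rest. Treatment took a median of 36.1% and replicate number 35.0% over the 10 genes in 3T3-L1, beside 46.2% and 16.4% over all genes tested. Replicate number took 58.2% for Nr1d1 and 3.5% for Dbp. In DFAT the medians of the 9 genes were 42.9% for treatment and 24.0% for number, beside 40.4% and 17.3% over all genes. Number took more than treatment for 5 of 10 genes in 3T3-L1, beside 25.2% of all genes. The same held for 2 of 9 in DFAT, beside 28.3% of all genes. PER1 was the gene with the largest share by number, 73.2%, with 8.5% by treatment, while CRY1 had 82.6% and DBP 74.4% by treatment.

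Deviations from the group mean were also compared between genes over the 15 libraries of each system, as a description, since the libraries share replicate numbers and normalization. In 3T3-L1 the highest Pearson r were 0.86 for Cry2 and Nr1d2, 0.82 for Cry1 and Nr1d2, 0.79 for Per3 and Cry1 and 0.78 for Per3 and Nr1d1. Clock ran against Per1 and against Nr1d1, with r of -0.46 for each. In DFAT the lowest was -0.91 for PER1 and NR1D2 and the highest 0.81 for CRY2 and TEF. The genes nearest to Nr1d1 over the 3T3-L1 libraries, by Pearson r of log2 values among 11567 genes, were Hmox1 (0.903), the haem oxygenase gene, Hr (0.892) and Wnk4 (0.872). Those nearest to Dbp were Tmem59 (0.798), Tmem138 (0.797) and Rab2a (0.796). In DFAT, over 9924 genes, they were PAF1 (0.827), UBTF (0.756) and HDGFL2 (0.725) for NR1D1, and GRAMD2B (0.925), CEND1 (0.890) and SGK1 (0.865) for DBP.

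**Figure D5:**
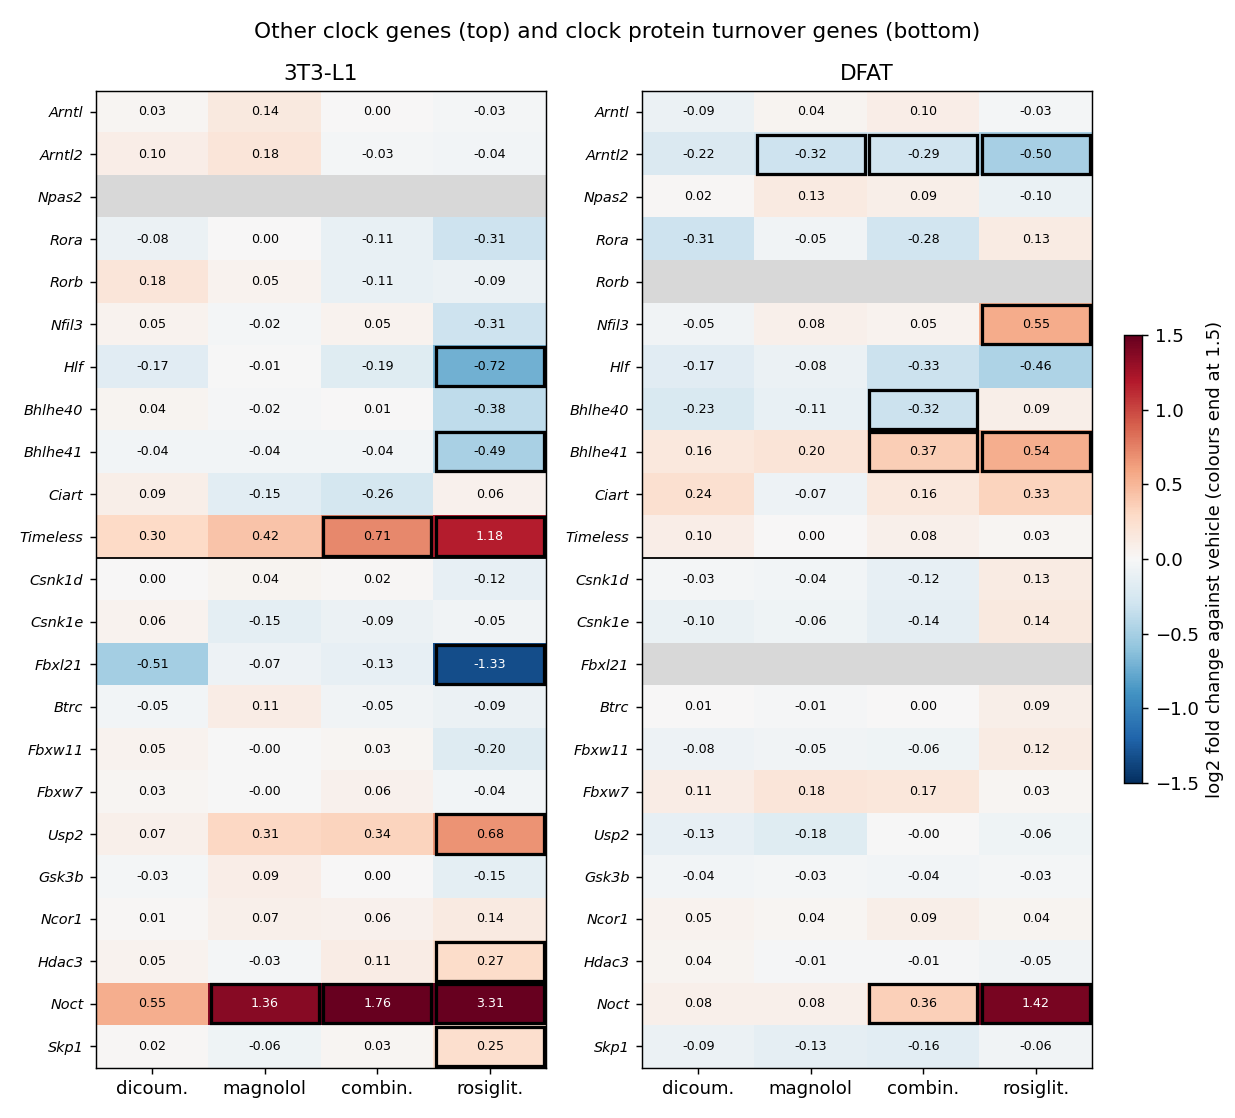
Log2 fold change against vehicle for 11 other clock genes (top) and a list of 12 genes (bottom), in 3T3-L1 and DFAT. The 12 are Noct and genes of clock protein turnover or REV-ERB corepression. Genes are named by mouse symbols (Arntl is BMAL1 and Arntl2 is BMAL2). Boxes mark an adjusted p under 0.05 and grey cells were not tested, and Noct with rosiglitazone, at 3.31 in 3T3-L1 and 1.42 in DFAT, has the highest value in each panel.

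Of 11 other clock genes, 10 were tested in 3T3-L1. The core activator Arntl, the gene of BMAL1, was not called in any group. It averaged 437 ± 59.4 normalized counts with vehicle and 425 ± 14.3 with rosiglitazone (SD, n = 3). The mean furthest from vehicle was 481 ± 37.4, with magnolol. Timeless rose with the combination (0.71, limma adjusted p 0.000931) and rosiglitazone (1.18, 5.1e-07). It is best known in mammals for DNA replication. Shares of all genes called higher in these comparisons were 3.86% and 20.3%.

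With rosiglitazone the D-box factor Hlf fell by 0.72 on the log2 scale (limma adjusted p 0.0196), and Bhlhe41, a repressor at E-boxes, fell by 0.49 (0.003). With dicoumarol and with magnolol 0 of 10 passed in limma, and 1 (Timeless) was at an unadjusted p under 0.05 in each. Over all 15723 genes, 393 and 1579 were at that p. The 1 higher and 2 lower calls of 10 with rosiglitazone stand beside 20.3% and 19.9% of all genes in those directions.

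In DFAT 10 of the 11 were tested. BMAL1 was not called in any group, at 871 ± 41.1 normalized counts with vehicle and 852 ± 20.9 with rosiglitazone. The mean of BMAL1 furthest from vehicle was 938 ± 98.2, with the combination. BMAL2, its paralogue, fell with magnolol, the combination and rosiglitazone, by 0.32, 0.29 and 0.50 on the log2 scale (limma adjusted p 0.00703, 0.00667 and 3.3e-05). The E-box repressor BHLHE41 rose with the combination (0.37, limma adjusted p 0.01) and rosiglitazone (0.54, 0.000376), where 6.11% and 5.80% of all genes were higher. BHLHE40 fell with the combination (-0.32, limma adjusted p 0.00524), and NFIL3, a D-box repressor, rose with rosiglitazone (0.55, 0.000307). NPAS2, a partner of BMAL1 that can stand in for CLOCK, averaged 3670 normalized counts in the DFAT vehicle libraries, and in 3T3-L1, a table normalized separately, Npas2 was listed at 0 in all 3 vehicle libraries.

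A further list of 12 genes held regulators of clock protein turnover and of REV-ERB repression, and also Noct. Of these, 12 were tested in 3T3-L1 and 11 in DFAT. Noct, a rhythmic gene of RNA and nucleotide metabolism known to favour adipogenesis, rose in 3T3-L1 with magnolol, the combination and rosiglitazone. Its mean went from 224 normalized counts with vehicle to 584, 790 and 2281, or 1.36, 1.76 and 3.31 on the log2 scale (limma adjusted p 0.00996, 0.000702 and 1.3e-07), where 1.07%, 3.86% and 20.3% of all genes were called higher. In DFAT NOCT rose with the combination (0.36, adjusted p 0.0356) and with rosiglitazone (1.42, 3.5e-08). The other calls were with rosiglitazone in 3T3-L1. Fbxl21, a ligase subunit for the cryptochromes, fell by 1.33 on the log2 scale. Its mean went from 47.5 normalized counts to 18.6, close to the minimum mean of 10 for testing. Usp2, Hdac3 and Skp1 rose by 0.68, 0.27 and 0.25. Hdac3 encodes the deacetylase that REV-ERB recruits with NCOR1, and Ncor1 was not called in any group.

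Genes that answer to the cAMP and glucocorticoid parts of the induction mix were read beside the Per genes. In DFAT 5 of 11 tested cAMP-responsive genes were lower with dicoumarol, 3 of 11 with magnolol and 6 of 11 with the combination, while 3 of 11 were higher with rosiglitazone. The shares of all genes in those directions were 1.03%, 1.27%, 4.06% and 5.80%. NR4A1 fell by 1.21 with dicoumarol and SIK1 by 1.11, both on the log2 scale (limma adjusted p 4.8e-05 and 1.6e-05), while PER1 changed by -0.01. In 3T3-L1, Sik1 and Fosl2, 2 of 12, were lower with rosiglitazone, at -0.62 and -1.26 (limma adjusted p 1.4e-05 and 0.000131), where 19.9% of all genes were lower.

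Of 7 tested glucocorticoid-responsive genes other than Per1 in 3T3-L1, Zbtb16 and Mt2 were higher with rosiglitazone, and Tsc22d3, Dusp1 and Sgk1 were lower, beside 20.3% of all genes higher and 19.9% lower. In DFAT 6 such genes other than PER1 were tested. SGK1, the serum and glucocorticoid kinase gene, was lower with dicoumarol, magnolol, the combination and rosiglitazone. Its log2 changes were -0.59, -0.49, -0.82 and -0.54 (limma adjusted p 0.0029, 0.00587, 2.2e-05 and 0.00123). It was the only 1 of the 6 called with dicoumarol, magnolol or the combination. With rosiglitazone KLF9 was also lower and DUSP1 higher. Shares of all genes called lower were 1.03%, 1.27%, 4.06% and 5.02% for the 4 treatments, and 5.80% were higher with rosiglitazone. The part of cAMP or glucocorticoid signalling in the values of the clock genes was not tested.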

How the data were processed

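Poly(A) RNA-seq was analysed from 30 libraries, 3 in each of 5 groups per system. The authors deposited 1 table per species of signal values, which are DESeq2-normalized gene counts per the labels. The submitters' processing notes name bcl2fastq 2.19.1.403, STAR, DESeq2 and the build GRCm38. The sources used here do not give the counting tool, its strand setting or the pig build. Low values were whole reads, within a tolerance of 0.02, for 81.7% to 82.8% (3T3-L1) and 89.8% to 91% (DFAT) of cases, so counts were not rebuilt and no count model was used.

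Genes whose normalized values averaged 10 or more across a table's 15 libraries were put on the log2(value + 1) scale, on which all fold changes are given and which understates changes of low genes. limma 3.58.1 (R 4.3.3), with a variance trend and all 5 groups in 1 fit, gave each contrast. Benjamini-Hochberg adjustment ran over all genes tested, with 0.05 as the threshold. Differences between systems used the 2 fits' estimates and errors. The code was tested on simulated data, and figures and sequences were handled in Python 3.11.15.

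Same-numbered 3T3-L1 libraries deviated together (all 30 pairs over 0.1, lowest 0.106), so the values with the replicate number as a block stand beside results whose call they change. In DFAT 16 of 30 pairs were over 0.1, and the numbers were not taken to pair the libraries. Calls with the block are given there without their values. All 10 genes are named; other clock, turnover, cAMP and glucocorticoid genes are named where called, with BMAL1, NPAS2 and Ncor1 chosen after their values were seen. Some genes of these lists are not reported here. The genes and lists were chosen with earlier results of these data known. Alternatives were another pseudocount (5), no filter, quantile normalization, no variance trend, the block, only the groups compared, and leaving out libraries.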

Additional observations from a re-analysis of the deposited data

How the results depend on the processing

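Of 1140 values of single genes under alternatives, 1108 kept their side of the threshold, and their direction where called, 21 lost the call, 11 gained it and 0 reversed. Most of the 1140 belong to results that were not called to begin with, so the 1108 say little about how stable the calls are. The 21 losses all come from the few results that were called: Per1 with rosiglitazone in 3T3-L1, and CRY1 and DBP in DFAT. Among genes called in neither fit, 78 values changed sign. In 3T3-L1 the replicate block took the members called from 0 to 2 in the test of all 5 groups, from 0 to 1 with the combination and from 1 to 4 with rosiglitazone, and no variance trend left 0 with rosiglitazone. In DFAT, where the numbers were not taken to pair the libraries, the block gave 4 in the test of all 5 groups, 4 with the combination (CRY1, DBP, NR1D2 and TEF) and 2 with rosiglitazone (CRY1 and CRY2). It gave 1 difference between systems with rosiglitazone (PER1), and it changed no other member call. The counts over all genes with rosiglitazone under the block are not given here, so these member counts have no background. No filter left 1 member (CRY1) in the DFAT test of all groups, and fitting the compared groups alone left 0 with magnolol and 0 with rosiglitazone.

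Leaving out 1 library at a time gave 0 to 1 members in the 3T3-L1 test of all groups, 0 to 2 with rosiglitazone in 3T3-L1, 1 to 3 in the DFAT test of all groups, 0 to 1 with magnolol and 1 to 2 with rosiglitazone in DFAT, and no change elsewhere. Leaving out a replicate number in every group, chosen after seeing the data, gave 0 with rosiglitazone in 3T3-L1, 0 in the DFAT test of all groups, 0 with magnolol, 0 to 2 with the combination and 0 to 2 with rosiglitazone in DFAT, and 0 to 1 (NR1D2) between systems with rosiglitazone. These fits hold 2 libraries a group.

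Counts of called genes over the whole tables, the background of the member counts, moved by over 1.5 times mainly with the block: in 3T3-L1 from 4411 to 6687 (all 5 groups), 0 to 79 (dicoumarol), 193 to 780 (magnolol), 821 to 2124 (combination) and 4 to 569 (combination against dicoumarol). In DFAT they went from 2646 to 4260 (all 5 groups), 288 to 670 (dicoumarol), 626 to 1360 (magnolol), 1508 to 2643 (combination), 348 to 893 and 92 to 290 (combination against dicoumarol and against magnolol). Between systems they went from 14 to 179 (dicoumarol), 303 to 1007 (magnolol) and 1095 to 2140 (combination). No variance trend gave 80 (magnolol) and 0 (combination against dicoumarol) in 3T3-L1, 57 (combination against magnolol) in DFAT, and 4 and 181 (dicoumarol, magnolol) between systems. Fitting the compared groups alone gave 102 and 0 in 3T3-L1 (magnolol, combination against dicoumarol) and 936 and 44 in DFAT (rosiglitazone, combination against magnolol). Quantile normalization gave 8 (combination against dicoumarol, 3T3-L1) and no filter 9 (dicoumarol, between systems). Without single libraries the counts fell to as few as 2834 (all 5 groups), 22 (magnolol) and 286 (combination) in 3T3-L1, where the combination against dicoumarol gave 0 to 46. In DFAT they fell to as few as 153 (dicoumarol), 400 (magnolol), 1011 (combination), 175 and 44 (combination against dicoumarol and against magnolol), and between systems to 4 (dicoumarol), 128 (magnolol) and 620 (combination). The lowest library value of any of the genes was 42.0 normalized counts (DBP), and 3 libraries a group limit the precision.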
